A study of Mus musculus with 6 samples.

Results

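The array that measured RNA of cultured mouse spermatogonial stem cells carried 886 probes that its design ties to RefSeq noncoding transcripts, those whose accession begins with NR_. Probes of H19 and Meg3 were set aside, and a probe was kept where the scanner software scored it well above background on at least 3 of the 6 arrays. This left 444 probes of 372 noncoding genes or accessions, out of 32433 probes that passed the same filter and 55681 probes on the array. Among them were 253 probes of 226 long noncoding RNA genes and 129 probes of 98 transcribed pseudogenes. Another 9 probes were of 8 genes that the RefSeq gene table lists as protein coding. A further 45 probes were of 32 accessions with no symbol in that table. The remaining 8 probes, of 8 genes, are called small structured RNAs here, although they include Rn28s1, the large ribosomal RNA. Cells from dissociated testis were passaged on gelatin and then moved to medium with mouse embryonic fibroblast feeders, so that feeder RNA may be part of each sample. Some days after a passage, 3 cultures were given 0.01 M captopril, a drug that blocks angiotensin-converting enzyme, and 3 were given sterile water (labelled with the same 0.01 M), each for 24 h. The labels number both groups as replicates 2, 3 and 4 and describe independent experiments, but do not say whether these were separate animals. Fewer cells of a type and less RNA per cell cannot be told apart in such samples.

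Noncoding transcripts act in several ways. Long noncoding RNAs can hold proteins at chromatin, as Xist does on the X chromosome, or build nuclear bodies, as Neat1 does in paraspeckles. Others are host transcripts, whose exons or introns are cut to release microRNAs or small nucleolar RNAs. A microRNA binds target messages through its seed, bases 2 to 8 from its 5′ end, and lowers their stability and translation. Transcribed pseudogenes are copies of coding genes that no longer make the protein. Opposite-strand transcripts run in the reverse direction to a coding gene, across it or beside it.

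The 4 host transcripts below were among the members named for the size of their difference. Some of the mature microRNAs that their RefSeq spans hold are shown, because these host RNAs are a source of them. Other mature forms from the same spans, such as miR-15a-3p of Dleu2 with the seed AGGCCAU, are not shown. The sequences are from RefSeq (GRCm38.p6), 5′ to 3′, with the seed in capitals. The array measured the host transcripts and not the mature microRNAs.
mmu-miR-22-3p, from Mir22hg: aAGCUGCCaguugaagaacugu
mmu-miR-9-5p, from Mir9-3hg: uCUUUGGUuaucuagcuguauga
mmu-miR-15a-5p, from Dleu2: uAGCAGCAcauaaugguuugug
mmu-miR-16-5p, from Dleu2: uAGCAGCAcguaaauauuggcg
mmu-miR-92a-3p, from Mir17hg: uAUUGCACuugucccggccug
The Dleu2 microRNAs shown share the seed AGCAGCA, and the other seeds shown differ from it and from one another. On GRCm38.p6 these lie at chr11:75463772-75463793 (+) for miR-22-3p, chr7:79505279-79505301 (+) for miR-9-5p, chr14:61632075-61632096 (-) for miR-15a-5p, chr14:61631936-61631957 (-) for miR-16-5p and chr14:115044476-115044496 (+) for miR-92a-3p.

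The start regions of Mirt1, the member with the firmest difference, and of Mir22hg and Mir9-3hg are given next, as windows of 300 bases that run from upstream to just past the RefSeq start (GRCm38.p6). Each reads 5′ to 3′ on the transcribed strand, and capitals mark matches to the motifs described after them.
Mirt1, chr19:53464747-53465046 (-): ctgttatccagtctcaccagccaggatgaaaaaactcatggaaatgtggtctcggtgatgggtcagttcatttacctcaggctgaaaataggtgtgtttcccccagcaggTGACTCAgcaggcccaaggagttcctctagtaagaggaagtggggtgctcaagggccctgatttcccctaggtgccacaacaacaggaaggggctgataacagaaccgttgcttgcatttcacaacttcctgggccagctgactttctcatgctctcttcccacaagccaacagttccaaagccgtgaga
Mir22hg, chr11:75461289-75461588 (+): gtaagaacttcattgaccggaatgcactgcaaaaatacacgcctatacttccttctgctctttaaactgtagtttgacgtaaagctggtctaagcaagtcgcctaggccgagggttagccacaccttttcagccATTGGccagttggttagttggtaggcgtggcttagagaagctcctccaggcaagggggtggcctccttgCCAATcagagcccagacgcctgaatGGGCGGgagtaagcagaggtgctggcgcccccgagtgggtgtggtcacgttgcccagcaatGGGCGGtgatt
Mir9-3hg, chr7:79499776-79500075 (+): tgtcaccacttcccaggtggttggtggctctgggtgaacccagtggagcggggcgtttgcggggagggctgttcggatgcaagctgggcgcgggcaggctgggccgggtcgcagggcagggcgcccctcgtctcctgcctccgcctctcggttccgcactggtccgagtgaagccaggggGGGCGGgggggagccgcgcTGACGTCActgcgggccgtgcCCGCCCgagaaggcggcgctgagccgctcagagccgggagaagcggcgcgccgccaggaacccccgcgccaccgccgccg
In total, 7 motifs were searched on both strands by exact match: AP-1 (TGAGTCA), CRE (TGACGTCA), the E-box (CACGTG), the CCAAT box (CCAAT), the TATA box (TATAAA), CHR (TTTGAA) and the GC box (GGGCGG). Mirt1 held 1 AP-1 match, on the strand opposite to transcription and starting at position -140 from the start, and no other match. The Mir22hg window held 2 CCAAT boxes and 2 GC boxes. In the Mir9-3hg window shown there were 1 CRE and 2 GC boxes. The RefSeq table holds a second Mir9-3hg start, not shown, whose window held 1 CCAAT box and 1 GC box and no CRE letters. AP-1 letters occur in 5.20% of all 32851 RefSeq windows of this length and in 3.74% of the 214 windows found for members. CRE letters occur in 1.79% of all windows and 2.34% of member windows, CCAAT in 37.4% and 44.9%, and the GC box in 35.7% and 47.7%. The member windows belong to 192 of the 340 member genes with a symbol, and a match describes letters, not binding.

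Levels are given as log2 of the background-subtracted spot signal minus the array's own 75th percentile of that signal, so 0 is a spot as bright as that percentile. They compare 1 probe across arrays, not 1 transcript with another. Between 410 and 436 members were well above background on each array except water replicate 3, where 382 were. That array also stood apart in its levels. Over the members, its Pearson correlation with the other arrays was 0.883 to 0.894, against 0.972 to 0.993 among the other 5. On water replicate 3, 136 members (30.6%) lay more than 2-fold from the mean of water replicates 2 and 4, and 34.2% of all probes did. The median SD of a member was 0.43 over the 3 water arrays, 0.13 over water replicates 2 and 4 and 0.22 over the 3 captopril arrays. Every result is therefore given from 2 fits, one of all 6 arrays and one without water replicate 3. All arrays were on 1 slide, with water replicates 2 and 3 in row 1 and the other 4 arrays in row 2. The parts that water replicate 3 and the slide row have in the results were not tested beyond the values given with and without them.

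Members far below the other water arrays on water replicate 3 were mostly pseudogenes. There, 21 members lay more than 8-fold below the mean of the other water arrays, and no member lay more than 8-fold above it. Of these 21, 15 were probes of transcribed pseudogenes, which is 11.6% of the pseudogene probes, and 4 were probes of long noncoding RNA genes, which is 1.58% of theirs. Over all probes tested, 5.86% lay as far below. The 2 kinds differ in brightness, with a median level of 0.14 for pseudogene probes and -2.14 for long noncoding RNA probes. A dim probe has less room for such a fall, and the part of brightness in the contrast was not tested. The pseudogene Gm13315 stood at 1.61 and 1.44 on water replicates 2 and 4 and at -7.04 on water replicate 3, while captopril gave 1.60, 0.79 and 0.36. Gm5069 stood at 5.00 and 4.82 on water replicates 2 and 4 and at -0.20 on water replicate 3, while captopril gave 4.88, 5.13 and 5.32. The captopril levels of both thus lay with or near those of water replicates 2 and 4. Gm6981 had 5 probes: one gave -3.17 on water replicate 3 against 3.93 and 3.89 on the other water arrays, whereas the other 4 differed there by -1.07 to 0.65 from the mean of those arrays.

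Captopril and water differed over the noncoding probes as a set about as much as over all probes. With all 6 arrays, 0 of 444 members and 0% of all probes passed an adjusted p of 0.05 (limma, Benjamini-Hochberg over 32433 probes), and the smallest adjusted p of a member was 0.554. An unadjusted p under 0.05 was reached by 44 members (9.91%) and 8.85% of all probes. Of the 44, 20 were higher on captopril, where 4.96% of all probes were, and 24 lower, where 3.89% of all probes were. The 3 captopril and 3 water levels did not overlap for 109 members (24.5%), beside 23.9% of all probes. Of these, 54 were higher (14.6% of all probes) and 55 lower (9.35% of all probes). A difference of 2-fold or more was measured for 46 members (10.4%) and 11.7% of all probes. The difference was positive for 251 members (56.5%) and 55.8% of all probes. Taken as captopril minus water, the median log2 fold change was 0.075 for the members and 0.066 for all probes. These shares are near the background and are no result about noncoding transcripts.

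Leaving out water replicate 3 narrowed the spread and brought 1 member past the threshold. That member was Mirt1, 0.225% of the members, beside 0.281% of all probes (limma, adjusted p). An unadjusted p under 0.05 was reached by 100 members (22.5%) and 19.9% of all probes. Of the 100, 63 were higher, where 13.8% of all probes were, and 37 lower, where 6.08% were. The groups did not overlap for 209 members (47.1%) and 43.7% of all probes: 136 members were higher (29.7% of all probes) and 73 lower (14% of all probes). A difference of 2-fold or more was measured for 13 members (2.93%) and 2.69% of all probes, and a positive one for 265 members (59.7%) and 62% of all probes. The median log2 fold change was 0.079 for members and 0.11 for all probes. The direction split depends on the scale. With 6 arrays, scaling by each array's median moved the median to -0.25 over all probes, from 0.066, and to -0.24 over members. The 45 members at an unadjusted p under 0.05 (7.5% of all probes) were then 7 higher and 38 lower. With quantile normalization, 15 were higher and 36 lower (9.38% of all probes in either direction). Without water replicate 3 the splits were 41 higher and 64 lower with median scaling (19.7% of all probes). They were 53 each way with quantile normalization (19.5%). Shares of all probes by direction were not counted under these scalings, so the splits are no result about the members.

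Mirt1, named as a myocardial infarction associated transcript, was higher on captopril. Its level was -3.99, -3.40 and -4.13 on water replicates 2, 3 and 4 and -2.59, -2.59 and -2.21 on captopril replicates 2, 3 and 4. All captopril arrays were above all water arrays, and all 6 were well above background. With all arrays the log2 fold change was 1.38 (SE 0.28, unadjusted p = 0.00195, limma adjusted p = 0.554). Without water replicate 3 it rose by 1.60 (SE 0.18, limma adjusted p = 0.0421). Within slide row 2, which holds 1 water array, the difference was 1.66. Of 14 other settings tried on these 5 arrays, 6 kept it past the threshold. The smallest limma adjusted p, 0.00125, came with the replicate number as a block, a fit that gave every probe the same SE of 0.36. The next smallest was 0.0226, with another background correction. The largest with both water arrays was 0.151, with no filter. Mirt1 was not past the threshold when any 1 further array was left out, although the log2 fold change stayed between 1.29 and 1.66 in all settings. The nearest coding gene in the RefSeq table, Smndc1, a splicing factor gene, differed by 0.23 without water replicate 3 (limma adjusted p = 0.503).

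Host transcripts of microRNAs stood on both sides. None passed the adjusted threshold in either fit. Mir22hg, which holds miR-22, had levels of 0.02, -0.87 and 0.04 on water and 0.52, 0.92 and 0.94 on captopril. The groups did not overlap, and the lowest water array was replicate 3. Its log2 fold change was 1.07 (SE 0.32) with all arrays and 0.76 (SE 0.19, limma adjusted p = 0.108) without water replicate 3. Dleu2, which holds miR-15a and miR-16-1, had levels of -2.75, -5.61 and -2.67 on water and -2.23, -2.08 and -1.97 on captopril. Water replicate 3, not well above background for this probe, set most of the gap: the log2 fold change was 1.59 (SE 0.78) with it and 0.62 (SE 0.16, limma adjusted p = 0.118) without it.

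Lower levels on captopril were measured for 2 other host transcripts. Mir9-3hg, the host of a miR-9 copy, had levels of -4.54, -3.68 and -4.59 on water and -6.29, -6.20 and -5.46 on captopril. It was well above background on all 3 water arrays and on no captopril array, which makes it at least 1.82-fold lower with all arrays and at least 1.48-fold lower without water replicate 3. The bound sets the bright group's mean against a mean that takes, on each dim array, the higher of the probe's own signal and the lowest signal scored well above background. The measured mean levels were -4.27 on water and -5.98 on captopril, and the limma adjusted p was 0.0782 without water replicate 3. Mir17hg, the host of the miR-17 to miR-92 cluster, had levels of -1.13, -0.04 and -1.09 on water and -1.41, -1.44 and -2.03 on captopril. These did not overlap, and the fold change was -0.87 (SE 0.37) with all arrays and -0.51 (SE 0.22, limma adjusted p = 0.264) without water replicate 3. Mir100hg, which holds miR-100, let-7a-2 and miR-125b-1, overlapped between the groups with all arrays, at 0.40 with all arrays and 0.76 without water replicate 3 (limma adjusted p = 0.223). The miRNA host list as drawn up also held Mirt1, which is no microRNA host. Among 12 member genes whose RefSeq span holds a microRNA, a set that leaves out Mirt1, the median log2 fold change was 0.093 with all arrays and 0.33 without water replicate 3. D7Ertd143e, whose span holds the miR-290 family copies expressed in pluripotent cells, differed by -0.18 and 0.07.

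Other long noncoding transcripts named for the size of their difference stood higher on captopril, with groups that did not overlap. Mhrt, a transcript of the heart myosin locus, stood at -3.47, -3.89 and -3.48 on water and -2.43, -2.79 and -2.67 on captopril. The log2 fold change was 0.99 (SE 0.24) with all arrays and 0.85 (SE 0.17, limma adjusted p = 0.0877) without water replicate 3. Hoxa11os, on the strand opposite to the homeobox gene Hoxa11, stood at -2.72, -2.14 and -2.62 on water and -2.0, -1.73 and -1.63 on captopril. All 3 captopril arrays were thus above water replicate 3, the highest water array, and the fold change was 0.71 and, without that array, 0.88 (limma adjusted p = 0.0875). Wbscr25, named for the Williams-Beuren syndrome region, stood at -1.80, -1.88 and -1.93 on water and -1.48, -1.21 and -0.99 on captopril. Its fold change was 0.64 in both fits, and here water replicate 3 lay between the other water arrays. Foxd2os is named for the strand opposite to the forkhead gene Foxd2, although their RefSeq spans do not overlap. Foxd2os differed by 0.56 and 0.65, and Redrum, a transcript known from developing red blood cells, by 0.48 and 0.63. Their limma adjusted p values without water replicate 3 were 0.158 and 0.125. All of these kept their sign with quantile and with median scaling.

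Other named transcripts stood lower on captopril. Flicr, a noncoding RNA of the Foxp3 locus, stood at -3.82, -3.70 and -3.90 on water and -5.02, -4.63 and -4.70 on captopril, where 2 of 3 arrays were well above background. The groups did not overlap, and the log2 fold change was -0.98 (SE 0.22) with all arrays and -0.92 (SE 0.18, limma adjusted p = 0.0814) without water replicate 3. Lockd, transcribed downstream of the cell cycle inhibitor gene Cdkn1b, stood at -0.67, 0.18 and -0.79 on water and -1.68, -1.54 and -1.14 on captopril. Water replicate 3 was the highest array, and the fold change was -1.03 with it and -0.73 without it (limma adjusted p = 0.137). The Tug1 probe that was brightest of 3 stood at -0.32, -0.20 and -0.08 on water and -0.70, -1.07 and -2.17 on captopril. Captopril replicate 4 was far below the other captopril arrays, and the fold change was -1.11 in both fits (limma adjusted p = 0.205 without water replicate 3). Dancr, a transcript that holds back differentiation and hosts a small nucleolar RNA, differed by -0.88 and -0.45, and the Rosa26 locus transcript Gt(ROSA)26Sor by -0.64 and -0.44. NR_ probes of Bmp1, a procollagen protease gene, and of Serpina3h, listed as a transcribed pseudogene of the serine protease inhibitor family, differed by -0.94 and -0.71 with all arrays and by -0.61 and -0.76 without water replicate 3. Bmp1 is listed as protein coding, and its probe's share of noncoding and coding transcript cannot be told apart.

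Transcripts known by systematic names gave gaps of similar size. Gm1141, a long noncoding RNA gene, stood at 0.49, 1.42 and 0.82 on water and -0.25, -0.47 and -0.41 on captopril. All captopril arrays were below all water arrays, and its log2 fold change was -1.28 (SE 0.29) with all arrays and -1.03 (SE 0.17, limma adjusted p = 0.0679) without water replicate 3. C030034I22Rik stood at 0.26, 1.04 and 0.31 on water and -0.40, -0.61 and -0.99 on captopril. Its fold change was -1.20 with all arrays and -0.95 without water replicate 3 (limma adjusted p = 0.0954). B330016D10Rik differed by -1.09 and -0.72 and 1700001L05Rik by -1.05 and -0.69, with water replicate 3 the highest array for both. On the higher side, G630025P09Rik stood at -2.02, -4.64 and -2.47 on water and -1.63, -1.37 and -1.21 on captopril. Water replicate 3 pulled its fold change from 0.84 (SE 0.21) without it to 1.64 (SE 0.66) with it. The same array lay far below the others for 4931406H21Rik, the accession NR_027806 and 4632415L05Rik, whose fold changes were 1.61, 1.60 and 1.58 with it and 0.74, 0.61 and 0.34 without it. These 3 values were smaller without that array.

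Hosts of small nucleolar RNAs, which guide modification of ribosomal RNA, gave no call. Of 21 listed hosts, 10 were measured, by 11 probes. None passed an unadjusted p of 0.05 in either fit, and the median log2 fold change was -0.064 with all arrays and 0.065 without water replicate 3, beside 0.066 and 0.11 for all probes. With all arrays it was 0.017 under quantile normalization and -0.38 under median scaling. Snhg1 stood at 1.74, 2.04 and 1.57 on water and 1.65, 1.85 and 1.66 on captopril, which overlap. Snhg12 stood at 1.22, 1.93 and 1.46 on water and 1.89, 1.63 and 1.56 on captopril, again overlapping. Snhg3 was uneven within both groups, at 0.32, 2.19 and 2.11 on water and 1.46, 1.12 and -0.46 on captopril. For Snhg17 the spot on water replicate 4 was an outlier by the scanner's flag and was dropped, so its 6-array value of 0.93 rests on 5 arrays and changes sign, to -1.37, in the authors' deposited table. Among 11 member genes whose span holds a small nucleolar RNA in the RefSeq table, a set that overlaps with the list, the median was -0.053 with all arrays and 0.22 without water replicate 3.

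Small structured RNAs, here the members of none of the other kinds, include parts of the ribosome, spliceosome and RNA processing enzymes. All 8 such probes had an adjusted p above the threshold in both fits, and an unadjusted p under 0.05 was reached by 0 of 8 with all arrays (8.85% of all probes) and by 4 of 8 without water replicate 3 (19.9% of all probes). Rnu3b1, a U3 RNA that acts in ribosomal RNA processing, stood at 2.53, 2.88 and 2.22 on water and 2.72, 3.03 and 3.25 on captopril. The groups overlapped through water replicate 3, and the log2 fold change was 0.45 with all arrays and 0.62 without that array. Rnu2-10, a U2 spliceosomal RNA, stood at 0.34, 0.29 and 0.51 on water and -0.05, 0.14 and -0.20 on captopril. It was lower on every captopril array, by -0.42 and -0.47. Rn28s1, the large ribosomal RNA and not a short one, differed by 0.31 and 0.47, and Rnu12, of the minor spliceosome, by 0.20 and 0.52. Rmrp, the RNA of RNase MRP, differed by 0.27 and 0.30. A total RNA preparation passed through a cleanup kit and an amplification step precedes these values. How far the short RNAs among them are carried through was not tested.

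Nuclear long noncoding RNAs overlapped between the groups apart from single probes. Of 12 listed, 6 were measured, by 11 probes, with a median log2 fold change of -0.31 with all arrays and -0.12 without water replicate 3; no probe passed the adjusted threshold. Malat1, of nuclear speckles, stood at 1.00, 2.21 and 1.21 on water and 0.65, 1.22 and 1.09 on captopril. Neat1 stood at 0.65, 1.88 and 0.77 on water and 0.57, 1.51 and 1.48 on captopril. Captopril replicate 2 was the lowest array for both, and water replicate 3 the highest. Xist, the RNA that coats the inactive X chromosome, stood at -2.92, -3.83 and -2.49 on water and -3.19, -4.64 and -2.50 on captopril, which overlap. Of 4 probes of Norad, a transcript that binds Pumilio proteins, one did not overlap, at -0.13, 0.24 and -0.23 on water and -0.68, -0.52 and -0.77 on captopril. That probe differed by -0.61 with all arrays and -0.48 without water replicate 3, while the other 3 ranged from -0.31 to 0.58 and from -0.09 to 0.19.

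Imprinted noncoding transcripts, which are expressed from one parental copy and often silence neighbouring genes, gave no called difference. Of 17 listed, 7 were measured by 9 probes, and the median log2 fold change was -0.12 with all arrays and 0.060 without water replicate 3, where median scaling gave -0.094. Kcnq1ot1, the silencing RNA of the Kcnq1 domain, had a probe at -0.83, -0.80 and -1.04 on water and -0.73, -0.21 and -0.04 on captopril. All captopril arrays were above all water arrays for it, by 0.56 with all arrays and 0.61 without water replicate 3 (limma adjusted p = 0.220). Its other probe stood at 0.42, 0.91 and 0.21 on water and 0.27, 0.48 and 0.81 on captopril, which overlap. Airn, the silencing RNA of the Igf2r domain, had a brighter probe at -0.61, 0.52 and -0.14 on water and -0.39, -0.18 and -0.41 on captopril, with a difference of -0.25 and 0.05. Peg3os stood at -0.11, -0.15 and -0.11 on water and -0.25, -0.39 and -0.42 on captopril, lower on every captopril array by -0.23 and -0.25.

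Pvt1, which lies beside the Myc oncogene, was among the listed developmental and stress transcripts. Its brighter probe stood at -1.11, 0.16 and -1.02 on water and -0.30, -0.34 and -0.31 on captopril. The captopril arrays lay close together, above water replicates 2 and 4 and below water replicate 3. Its log2 fold change was 0.34 (SE 0.37) with all arrays and 0.75 (SE 0.15, limma adjusted p = 0.0845) without water replicate 3, and the second probe gave 0.05 and 0.48. Myc, the nearest coding gene, stood at -1.46, 0.18 and -1.11 on water and -0.29, -0.47 and -0.47 on captopril. Its captopril arrays too lay above water replicates 2 and 4 and below water replicate 3, with a difference of 0.39 and 0.88 (limma adjusted p = 0.0877 without water replicate 3). Platr14, a transcript tied to pluripotency that was chosen after its values were seen, stood at -2.40, -1.59 and -2.46 on water and -1.71, -1.51 and -1.32 on captopril. It overlapped only through water replicate 3, with a difference of 0.64 and 0.92 (limma adjusted p = 0.0783 without that array). The listed germ cell and meiotic noncoding transcripts had no member among the probes.

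Noncoding genes and their nearest coding genes were set side by side for 195 pairs in which both were measured, with neighbours taken from the RefSeq table. The differences had the same sign in 107 pairs (54.9%) with all arrays and in 105 (53.8%) without water replicate 3. For 11679 pairs of neighbouring coding genes the shares were 52.8% and 53.4%. Pearson's r across the noncoding pairs was 0.13 in both fits, beside 0.048 and 0.075 across the coding pairs. These describe pairs that share the same arrays. In the 87 pairs whose spans overlap, 41 (47.1%) and 44 (50.6%) had the same sign, beside 54.5% and 53.2% of 2273 overlapping coding pairs. G630025P09Rik and the overlapping Tmem102 differed by 0.84 and 0.67 without water replicate 3, and both were lowest on that array. Mhrt and the overlapping Myh7, a heart myosin gene, differed by 0.85 and 0.52. Wbscr25 and the overlapping tight junction gene Cldn3 went opposite ways, by 0.64 and -0.62, and Cldn3 stood at -2.83, -2.95 and -3.10 on water and -3.76, -3.76 and -3.23 on captopril. All captopril levels of Cldn3 were below all its water levels, the reverse of Wbscr25. Hoxa11os differed by 0.88 and Hoxa11 by 0.27, and Lockd by -0.73 and Cdkn1b by -0.23. The homeobox gene Dlx4 differed by 0.85 and its opposite-strand transcript Dlx4os by -0.14. None of these coding neighbours passed the adjusted threshold.

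Transcribed pseudogenes gave no call in either fit. Of 129 probes, 82 (63.6%) had a positive difference with all arrays and 90 (69.8%) without water replicate 3, where 55.8% and 62% of all probes did, with medians of 0.17 and 0.18 beside 0.066 and 0.11 for all probes. An unadjusted p under 0.05 was reached by 10 (7.75%) and 23 (17.8%) of them, beside 8.85% and 19.9% of all probes. For 19 probes of 16 pseudogenes whose symbol names a measured parent gene, pseudogene and parent had the same sign for 9 probes with all arrays and 13 without water replicate 3. Pdxk-ps, a copy of the pyridoxal kinase gene, stood at -0.11, -0.83 and -0.24 on water and -0.92, -1.18 and -1.53 on captopril. All captopril arrays were lower, by -0.82 with all arrays and -1.04 (SE 0.21, limma adjusted p = 0.0892) without water replicate 3, and the parent Pdxk differed by -0.45 in the second fit. Tdg-ps2 and the DNA repair gene Tdg differed by -0.60 and -0.69 without water replicate 3, and Tyms-ps and Tyms, of thymidylate synthesis, by -0.43 and -0.40. Sycp1-ps1 and the meiotic gene Sycp1 differed by -1.04 and 0.09. Tubb2a-ps2 stood at -0.62 and -0.51 on water replicates 2 and 4 and at -5.91 on water replicate 3, where the parent tubulin gene stood at 2.38 against 1.85 and 1.77. Cyp4f41-ps and Speer8-ps1 differed by 0.90 each with all arrays and by 0.48 and 0.19 without water replicate 3. The probes' sequences are not in the files used here, so signal from a pseudogene and from its near-identical parent cannot be told apart.

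Probes of one transcript did not always go the same way. Among 55 noncoding genes with more than 1 probe, the signs differed in 22 with all arrays and in 17 without water replicate 3. The widest spread was in Tug1, where 3 probes gave -1.11, -0.56 and 0.17 without water replicate 3, a range of 1.28. Its second probe stood at -2.12, -0.45 and -2.21 on water and -2.12, -2.04 and -1.82 on captopril, and its dimmest at -3.93, -5.22 and -3.94 on water and -4.19, -4.82 and -4.47 on captopril. Only the brightest probe separated the groups with all 6 arrays. The median range over the 55 genes was 0.29.

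Protein partners of noncoding RNAs gave no call. Over 6 lists, 87 genes had a probe, and 0 passed the adjusted threshold in either fit (limma), while 8 (9.20%) with all arrays and 14 (16.1%) without water replicate 3 had an unadjusted p under 0.05, beside 8.85% and 19.9% of all probes. Of these, 8 and 11 were lower on captopril, where 3.89% and 6.08% of all probes were. The paraspeckle proteins Rbm14 and Pspc1 differed by -0.61 and -0.78 without water replicate 3, with limma adjusted p values of 0.133 and 0.161. Suz12 and Ezh2, of the complex that methylates histones on the inactive X, differed by -0.57 and -0.46. Tnrc6c and Tnrc6a, which act in silencing by microRNAs, differed by 0.78 and -0.53. Rbm8a, of the exon junction complex used in nonsense-mediated decay, differed by -0.72, Nop58, a core protein of small nucleolar RNPs, by -0.52, and Pop1, of RNase P and MRP, by -0.54.

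Markers of the cell types in the cultures were measured on the same arrays. All 21 germ cell markers listed and all 20 embryonic fibroblast markers were measured. The summed level of the fibroblast markers, in units of the array's 75th percentile, was 213 to 417 on water and 214 to 253 on captopril, with the highest value on water replicate 3. With all arrays, 18 of the 20 fibroblast markers were lower on captopril, with a median of -0.34, and 10 of 20 without water replicate 3, with a median of -0.024. None passed the adjusted threshold (limma), and 6 and 7 had an unadjusted p under 0.05, beside 8.85% and 19.9% of all probes. The matrix and mesenchymal genes Col3a1, Lum, Postn, Pdgfrb, Fbn1 and Prrx1 were the 6 and were lower in both fits. The other of the 7 was Thbs1, which was higher without water replicate 3, by 0.58. For the germ cell markers the summed level was 133 to 205 on water and 143 to 178 on captopril. Of these 21, 10 were higher on captopril with all arrays and 14 without water replicate 3, with medians of -0.0078 and 0.16. An unadjusted p under 0.05 (limma) was reached by 0 and 3 of them. The 3 were Bcl6b, Sall4 and Lin28a, all higher. Of 15 Sertoli and Leydig cell markers 6 were measured; Amh, Gata4, Fshr, Insl3 and Cyp17a1 were not among the probes that passed. Of 11 blood cell markers 9 were measured, with a summed level of 40.7 to 67.7 on water and 45.8 to 58.7 on captopril. Among them the T cell receptor subunit gene Cd3g was lower on captopril, by -2.04 with all arrays and -1.57 without water replicate 3 (limma adjusted p = 0.0421). It was well above background on 2 of 3 captopril arrays, and no other blood cell marker passed the threshold. Without water replicate 3, 5 of the 9 were higher on captopril and 4 lower. Cd3e, Cd4 and Ptprc were among the higher ones, by 0.65, 0.19 and 0.70. The part of feeder or other cells in the noncoding levels was not tested.

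Detection set the lower edge of the set. Of the 444 members, 357 were well above background on all 6 arrays, 48 on 5, 21 on 4 and 18 on 3. The 18 at the edge had mean levels of -5.44 to -4.16, and the 16 NR_ probes just outside, well above background on 2 arrays, had mean levels of -5.72 to -4.53. Another 367 NR_ probes were above background on none. Members detected in a whole group and on no array of the other numbered 4, and the filter let them in through one group. In each fit, 2 of these 4 are among the members counted above at an unadjusted p under 0.05, and 3 are among those whose groups did not overlap. One was Mir9-3hg, given above. Another, 1810064F22Rik, was at least 1.42-fold higher on captopril, and at least 1.52-fold without water replicate 3, with mean levels of -5.71 on water and -4.61 on captopril. E130018N17Rik was at least 1.18-fold lower with all arrays and at least 1.08-fold lower without water replicate 3. BC031361 overlapped between the groups, with a bound of 1.37-fold lower with all arrays and 1.12-fold lower without water replicate 3. For 36 members, water replicate 3 was the only array on which the probe was not well above background, against 1 to 5 members for each other array.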

How the data were processed

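Cultured spermatogonial stem cells gave RNA that was amplified and labelled with Cy3, per the labels' protocols, for 6 one-colour Agilent arrays. Per the file headers, the scanner program (Agilent Feature Extraction 11.5.1.1; the submitters' processing notes name 10.7) made the deposited spot intensity values and subtracted their background within each array. The authors also deposited a table of log2 values, used as an alternative. Here the main value was log2 of the processed signal minus the array's 75th percentile; control and outlier spots were left out and spots of 1 probe averaged. Probes well above background on at least 3 arrays were fitted with limma 3.58.1 (R 4.3.3; lmFit, eBayes) and adjusted by Benjamini-Hochberg over all 32433, once with 6 arrays and once without water replicate 3. The fits were tested on simulated data, with 100 probes changed 2-fold and 100 changed 4-fold. With 6 arrays, 0% of the 2-fold and 19% of the 4-fold changes were recovered, and 0 unchanged probes were called. Without water replicate 3, 1% and 73% were recovered, and 2 unchanged probes were called. A 2-fold change could thus hardly be called in either fit, so the lack of a call does not show that a transcript was unchanged. Background correction, scaling, filter, probe choice, variance model, replicate and slide row blocks and single arrays were varied. The samples were treated as unpaired, since nothing says what the shared replicate numbers mark. Same-numbered arrays' deviations correlated at -0.03, 0.03 and -0.17. With 3 arrays per group, and water replicate 3 standing apart, these values cannot show whether the numbers pair the samples. P-values measure the spread between these samples, and 6 arrays limit the precision.

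Names and neighbours came from RefSeq's GRCm38.p6 gene table by accession, which named 813 of the 886 NR_ probes. The array design uses mm9, so gene coordinates of that table are not given. The members and gene lists were chosen with earlier results of these data known. By rule, transcripts were named among members whose groups did not overlap, with the brightest probe per gene. These were the 10 largest increases and 10 largest decreases by the 6-array fold change among symbols that are not systematic. The 4 largest each way among systematic symbols, every member past an adjusted p of 0.05 and measured members of the lists were added. Other examples, such as some pseudogenes, small structured RNAs and neighbour pairs, lie outside this rule and were picked with their values known.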

Additional observations from a re-analysis of the deposited data

How the results depend on the processing

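With 6 arrays, 0 members passed the adjusted threshold in every setting but one: without water replicate 3 the count was 1 (range over single arrays left out, 0 to 1). The 44 members at an unadjusted p under 0.05 (8.85% of all probes) became 11 with slide row as a block (2.16% of all probes). With no filter, 71 of 881 NR_ probes reached it, beside 7.78% of all probes. With single arrays left out the count was 18 to 100. It was 18 without captopril replicate 3 (3.47% of all probes) and 23 without captopril replicate 4 (3.87%). Without water replicate 3 it was 100 (19.9%). These counts moved with those of all probes. The 109 non-overlapping members became 126 to 209 with single arrays left out (209 without water replicate 3). They became 300 within slide row 2 alone, an alternative chosen after seeing the data. Groups with fewer arrays overlap less often by chance, and slide row 2 holds 1 water array. Over all probes, 23.9% did not overlap with 6 arrays and 43.7% without water replicate 3. No share of all probes is given for the other settings, so these counts are no result about the members. The median log2 fold change of 0.075 became -0.022 with quantile normalization and -0.24 with median scaling.

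Without water replicate 3, the 1 called member became 0 with quantile normalization, with median scaling and with no filter, 2 with a variance trend and robust estimation (adding Gm1141), and 0 whenever a further array was left out. The 100 members at an unadjusted p under 0.05 ranged from 49 to 118 with further arrays left out (49 without water replicate 4, 65 without water replicate 2). The median of 0.079 became 0.0083 with quantile normalization, -0.075 with median scaling and 0.22 with no filter, and ranged from 0.055 to 0.14 with further arrays left out.

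With the replicate number as a block, 0 members were called with 6 arrays, and 33 had an unadjusted p under 0.05, beside 6.54% of all probes. Without water replicate 3 the replicate block called 9 members, and 433 of all probes. There, 55 members had an unadjusted p under 0.05, beside 9.59% of all probes. That fit gave every probe the same SE of 0.36. The cause of these changes was not tested, beyond the fewer or more probes and arrays that a setting itself brings. Of the 36 listed probes outside the naming rule, 29 changed sign in at least 1 setting. A probe near background has a compressed fold change, and 6 arrays limit what can be called.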
